A study of Mus musculus with 12 samples.

Results

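The genes described here carry glucose into the cell and turn it into pyruvate and lactate. They are 10 of the 28987 genes in the deposited table, chosen by name: the glucose transporters Slc2a1 and Slc2a3, the hexokinases Hk2 and Hk3, the glycolytic enzymes Gpi1, Pfkl, Aldoa, Pgk1 and Pkm, and the lactate dehydrogenase Ldha. All 10 were found in the table by symbol, and all 10 passed the filter on low values in every fit. RNA sequencing of bone marrow cells from C57BL/6 mice gave their transcript levels in 12 libraries, which form 6 groups of 2. In 4 groups the cells were HSCPs, the stem and progenitor fraction enriched through the receptor CD117 (the product of Kit), either wild type or with a CBL mutant, RUNX1 mutant or CBL/RUNX1 mutant clone. In the other two groups the cells were Ly6G+ myeloid cells of the marrow, wild type or CBL/RUNX1 mutant. Ly6G is a surface marker of neutrophils, CBL is an E3 ligase that tags activated receptor kinases for removal, and RUNX1 binds DNA to control genes of blood development. Per the labels' protocols each harvest came from an individual mouse, and the mutant clone and the Ly6G+ cells were sorted by flow cytometry. The labels do not say how the mutations were made or which cells carried them. Sorting of the clone cannot be told apart from genotype.

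Glycolysis splits glucose into pyruvate and yields ATP without oxygen, and lactate dehydrogenase then regenerates the NAD+ that the pathway needs. Neutrophils rely mainly on glycolysis for energy and have few mitochondria, and blood stem cells in the marrow are also known for glycolytic metabolism. Many genes of the pathway are targets of the hypoxia-inducible factor HIF-1 and of MYC.

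Each value for a library is a TPM (transcripts scaled to a fixed library total and corrected for gene length), exactly as the authors deposited it. Levels can therefore be compared between genes. Fold changes are differences of log2(scaled TPM + 1), where the scaling between libraries (trimmed mean factors, TMM) sets most genes to no change. A gene is called when its limma p-value, adjusted over every gene of the fit by the Benjamini-Hochberg method, is under 0.05. All comparisons against wild type HSCPs share the same 2 control libraries, so they are not independent of each other. With 2 libraries against 2, an exact permutation test of a single value cannot go below p = 0.333, so ratios within a library are given without a test.

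The libraries differed in ways that touch these genes. The mutated genes were at higher levels in the libraries labelled mutant: Cbl was at 73.7 to 144 TPM in groups carrying the CBL mutation and at 17.9 to 45.0 TPM elsewhere, and Runx1 was at 45.3 to 257 TPM in groups carrying the RUNX1 mutation and at 8.77 to 16.4 TPM elsewhere. The replicates of RUNX1 mutant HSCPs and of CBL/RUNX1 mutant Ly6G+ cells stood apart from each other, with a replicate difference in log2 level that had an SD over genes of 0.71 and 1.0, against 0.30 to 0.38 in the other groups. Replicate 1 of RUNX1 mutant HSCPs had Kit at 229 TPM and Ly6g at 26.2, and replicate 2 had 26.2 and 384. Their summed megakaryocyte markers were 477 and 71.2 TPM, against 24.8 to 25.1 in wild type HSCPs. T and natural killer cell markers summed to 34.0 and 102, against 182 to 186 in wild type. Most of that sum was Nkg7, at 28.7 and 97.2 against 178 and 179 TPM. Monocyte and macrophage markers summed to 419 and 1144, against 1617 to 1648, and erythroid markers to 285 and 830, against 411 to 421. The HSCP libraries held much neutrophil RNA. The summed TPM of 10 neutrophil markers was 320422 to 345587 in wild type, 247952 to 305463 in CBL mutant, 143288 to 307937 in RUNX1 mutant and 86938 to 98911 in CBL/RUNX1 mutant HSCPs. In Ly6G+ cells this sum was 398040 to 404034 in wild type and 85287 to 311625 in the CBL/RUNX1 mutant, the lower value being replicate 1. All 10 neutrophil markers were above 0 in every group. Other cell markers moved too. The summed TPM of 7 B and plasma cell markers was 40195 to 41766 in wild type, 351 to 648 in CBL mutant, 2596 to 14684 in RUNX1 mutant and 60.6 to 70.1 in CBL/RUNX1 mutant HSCPs, and in Ly6G+ cells 11094 to 11982 in wild type against 363 to 956 in the mutant. The sum of the 5 primary granule markers in the table was 7672 to 8100 TPM in wild type, 4737 to 11645 in CBL mutant, 8248 to 10287 in RUNX1 mutant and 14474 to 16576 in CBL/RUNX1 mutant HSCPs, and in Ly6G+ cells 582 to 601 against 768 to 1505. The sum of 8 stem and progenitor markers was 163 to 200 TPM in wild type, 271 to 297 in CBL mutant, 217 to 1069 in RUNX1 mutant and 401 to 531 in CBL/RUNX1 mutant HSCPs. In CBL/RUNX1 mutant HSCPs the T and natural killer cell sum was 12.1 to 12.3 TPM and the megakaryocyte sum 67.6 to 122. The monocyte and macrophage sum was 729 to 864 there, with Ly6c2 and Cx3cr1 below wild type and Csf1r, Ccr2 and Ms4a6c above. In CBL mutant HSCPs these sums were 230 to 291, 9.55 to 13.8 and 1522 to 2474, with Trbc1 at 81.8 and 32.3 against 0.813 and 2.41 in wild type. All these sums follow their most abundant markers, and some markers did not follow the sum. From wild type to CBL/RUNX1 mutant HSCPs, the stem marker Mecom fell from 68.5 and 47.3 to 0.510 and 0.786 TPM. The B cell marker Cd79b rose from 16.1 and 15.5 to 23.4 and 22.6 TPM in the same groups. There the neutrophil marker Csf3r was at 102 and 71.2 against 88.6 and 91.3 TPM. Ly6g itself was at 2017 and 2026 TPM in wild type Ly6G+ cells and at 389 and 1448 in CBL/RUNX1 mutant ones. Kit was at 24.5 to 25.6 TPM in wild type HSCPs, 37.5 to 42.4 in CBL mutant and 38.0 to 50.8 in CBL/RUNX1 mutant HSCPs. The part of these cell mixtures in the results below was not tested, and in such bulk samples fewer cells of a type and less RNA per cell cannot be told apart.

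Promoter letters of the pathway are shown first, since its HIF-1 and MYC targets share a short core and RUNX1 is mutated in 3 of the groups. RefSeq entries of build GRCm38.p6 gave 13 windows of the 250 bases before a start site, for 9 of the 10 genes. The HIF core ACGTG, searched on both strands, was present in 8 windows of 7 genes (Slc2a1, Hk2, Hk3, Aldoa, Pgk1, Pkm and Ldha), against 16.6% of 32851 mouse promoter windows of the same length. The Aldoa windows with a match overlap and hold the same site. The percentages count windows and not genes, and Aldoa, Pkm and Ldha have several windows each. Its G form, GCGTG, was present in windows of 3 genes (Slc2a1, Pfkl and Ldha), against 28.2% of all windows. The E-box CACGTG, the letters read by MYC, was present in Ldha alone, 2 times, against 6.02% of all windows. CACGTG contains ACGTG on both strands, so its 2 matches account for 4 of the 5 ACGTG matches in that window. The letters TGTGGT, a core read by RUNX1, were present in Slc2a1 and Hk3, against 14.0% of all windows. The 3 windows printed are those of Ldha, which was called between mutant HSCP groups, and of Hk3 and Hk2, hexokinases that differ in level and in these letters. They lie at chr7:46845554-46845803 on the plus strand (Ldha), chr13:55021386-55021635 on the minus strand (Hk3) and chr6:82774455-82774704 on the minus strand (Hk2). Each reads 5′ to 3′ on the strand of the gene, and capitals mark a match to one of the searched letter groups on either strand.
Ldha: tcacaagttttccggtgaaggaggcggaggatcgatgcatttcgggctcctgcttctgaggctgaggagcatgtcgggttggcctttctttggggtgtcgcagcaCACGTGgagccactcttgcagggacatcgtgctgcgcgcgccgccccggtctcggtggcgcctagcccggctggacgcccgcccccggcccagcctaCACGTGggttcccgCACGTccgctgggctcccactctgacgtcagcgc
Hk3: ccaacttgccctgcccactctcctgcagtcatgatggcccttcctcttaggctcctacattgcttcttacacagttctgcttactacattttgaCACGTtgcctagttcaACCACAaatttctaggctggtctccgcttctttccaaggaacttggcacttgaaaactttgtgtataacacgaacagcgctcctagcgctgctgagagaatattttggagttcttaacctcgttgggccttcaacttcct
Hk2: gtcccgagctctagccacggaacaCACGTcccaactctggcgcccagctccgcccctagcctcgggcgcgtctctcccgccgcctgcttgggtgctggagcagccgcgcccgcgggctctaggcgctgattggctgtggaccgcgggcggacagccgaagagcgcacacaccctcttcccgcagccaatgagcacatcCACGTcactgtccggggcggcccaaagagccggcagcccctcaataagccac
In Ldha the E-boxes begin 145 and 48 bases before the start. In Hk3 the ACGTG match begins 156 and the TGTGGT match 140 bases before the start, both on the opposite strand. In Slc2a1 the ACGTG match begins 36 bases before the start, GCGTG begins at 61 bases and TGTGGT at 104 bases. A match is a description of letters and not evidence of binding.

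The level of the 10 genes ran from a few TPM to over 1000. Median levels over the 12 libraries were highest for Pkm (834 TPM), Gpi1 (796), Aldoa (504), Ldha (433) and Pgk1 (337). Hk3 (200 TPM) and Slc2a3 (67.7) lay in between, and Pfkl (29.0), Hk2 (20.8) and Slc2a1 (17.5) were lowest. Slc2a3 varied most between libraries, with a highest TPM 10.1 times its lowest, and Pgk1 varied least, at 1.77 times. Together the genes made up 0.307% and 0.330% of all TPM in wild type HSCPs, 0.309% and 0.359% in CBL mutant, 0.297% and 0.334% in RUNX1 mutant, and 0.381% and 0.438% in CBL/RUNX1 mutant HSCPs. In Ly6G+ cells the share was 0.398% and 0.409% in wild type, against 0.234% and 0.338% in the CBL/RUNX1 mutant. In this share both CBL/RUNX1 mutant HSCP libraries lay above all other HSCP libraries, and both CBL/RUNX1 mutant Ly6G+ libraries lay below the wild type ones. The order in HSCPs turned with scaling: the summed scaled TPM of the 10 genes was 3868 and 4217 in wild type HSCPs, above the 2936 and 3728 of the CBL/RUNX1 mutant. S100a8 and S100a9, abundant neutrophil transcripts, held 28.9% and 31.4% of TPM in wild type HSCPs, against 8.11% and 9.54% in the CBL/RUNX1 mutant, and 71.3% of all genes had both mutant libraries above both wild type ones in TPM. Their part in the share was not tested. In Ly6G+ cells the summed scaled TPM was 4886 and 5096 in wild type, above the 1454 and 3471 of the CBL/RUNX1 mutant.

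**Figure D1:**
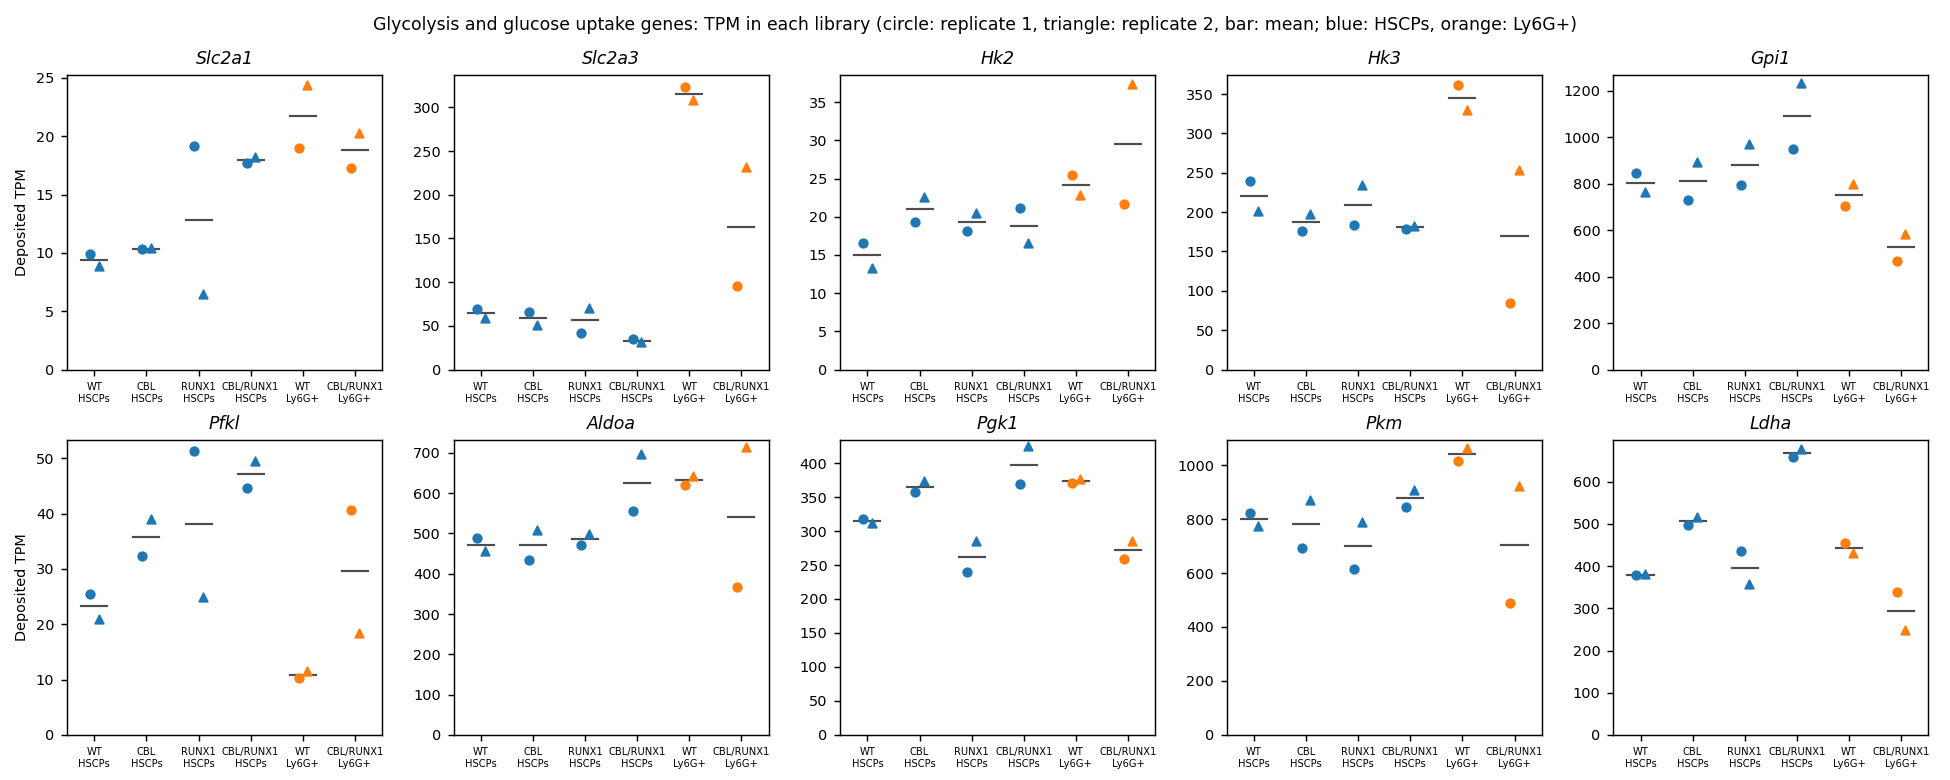
Deposited TPM (vertical axes, linear from 0) of each gene in the 12 libraries, by group; circles are replicate 1, triangles replicate 2 and bars the mean of both. Slc2a3 stands at 308 and 323 TPM in wild type Ly6G+ cells and at 31.9 and 34.5 in CBL/RUNX1 mutant HSCPs, and Ldha is highest in CBL/RUNX1 mutant HSCPs.

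Slc2a3 encodes GLUT3, a high-affinity glucose transporter (chromosome 6, 122727809 to 122801640, minus strand, GRCm38, protein-coding, as are all 10 genes). In HSCPs its level was 69.3 and 59.5 TPM in wild type, 66.1 and 51.2 in CBL mutant, 42.3 and 70.6 in RUNX1 mutant, and 34.5 and 31.9 in CBL/RUNX1 mutant libraries. Among Ly6G+ libraries its level was 323 and 308 TPM in wild type, against 95.2 and 232 in the CBL/RUNX1 mutant. In deposited TPM the CBL/RUNX1 mutant HSCPs lay below every other library, and every Ly6G+ library lay above every HSCP library. After scaling the CBL/RUNX1 mutant HSCPs were still lowest (27.6 and 28.0). Replicate 1 of the CBL/RUNX1 mutant Ly6G+ cells (63.4) then lay below wild type HSCPs (83.4 and 84.0). Slc2a3 was lower in CBL/RUNX1 mutant than in wild type HSCPs, with log2 fold change -1.56 ± 0.35 (± SE throughout) and adjusted p = 0.0405. The call depended on which libraries set the spread, at a nearly constant fold change: leaving out either wild type or either CBL/RUNX1 mutant library gave adjusted p of 0.167 to 0.204 with a log2 fold change of -1.55 to -1.57, and leaving out replicate 1 or 2 of the CBL mutant gave 0.0738 and 0.0743. In the other direction, the adjusted p was 4.1e-05 with the compared libraries alone and 0.000224 and 0.000228 without replicate 1 or 2 of the RUNX1 mutant. In TPM without scaling the log2 fold change was -0.93 (adjusted p = 0.0228). The single mutants had log2 fold changes of -0.55 ± 0.35 (CBL) and -0.77 ± 0.35 (RUNX1) against wild type and were not called. Slc2a3 was higher in Ly6G+ cells than in HSCPs in both genotypes, by 2.23 ± 0.57 in wild type (adjusted p = 0.0153) and 2.12 ± 0.57 in the CBL/RUNX1 mutant (adjusted p = 0.0252). The wild type call was lost without any 1 of the 4 compared libraries (adjusted p of 0.0686 to 0.0772) and had adjusted p = 2.76e-06 with those 4 alone, and the mutant call without replicate 1 or 2 of its HSCPs (0.0979 and 0.12) or replicate 2 of its Ly6G+ cells, where the log2 fold change was 1.16 (0.0634). Without replicate 1 of those Ly6G+ cells it was 3.08 (adjusted p = 0.00076). In Ly6G+ cells the CBL/RUNX1 mutant differed from wild type by -1.67 ± 0.74 and was not called. The 2 HSCP groups with the lowest and highest Slc2a3 also had the lowest and highest neutrophil marker sums, and the part of those cells in the difference was not tested.

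Slc2a1 encodes GLUT1, the widely expressed basal glucose transporter (chromosome 4, 119108711 to 119137983, plus strand). Its level in HSCPs was 9.94 and 8.92 TPM in wild type, 10.3 and 10.4 in CBL mutant, 19.2 and 6.49 in RUNX1 mutant, and 17.7 and 18.2 in CBL/RUNX1 mutant libraries. In Ly6G+ cells it was at 19.0 and 24.4 TPM in wild type, against 17.3 and 20.3 in the CBL/RUNX1 mutant. The CBL/RUNX1 mutant HSCPs thus lay above the wild type ones in TPM, but the RUNX1 mutant replicates spanned the whole HSCP range. No genotype comparison in HSCPs called Slc2a1, the CBL/RUNX1 mutant having a log2 fold change of 0.28 ± 0.29 against wild type. Wild type Ly6G+ cells were higher than wild type HSCPs by 1.09 ± 0.34 (adjusted p = 0.036). Leaving out any 1 of 8 libraries, among them both CBL mutant and both CBL/RUNX1 mutant HSCPs, ended this call (adjusted p of 0.0555 to 0.184), as did the table without scaling (0.0655). With the compared libraries alone the adjusted p was 0.000256. Between the CBL/RUNX1 mutant populations the difference was 0.05 ± 0.34.

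The balance of the transporters does not depend on scaling between libraries. Slc2a3 TPM was 6.98 and 6.67 times Slc2a1 TPM in wild type HSCPs, 6.42 and 4.93 times in CBL mutant, 2.20 and 10.9 times in RUNX1 mutant and 1.95 and 1.75 times in CBL/RUNX1 mutant HSCPs. The CBL/RUNX1 mutant values lay below all other libraries. In Ly6G+ cells the ratio was 17.0 and 12.6 in wild type, against 5.5 and 11.4 in the CBL/RUNX1 mutant, without overlap.

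Hk3 encodes a hexokinase typical of myeloid cells, and hexokinases trap glucose in the cell by phosphorylating it (chromosome 13, 55005985 to 55021385, minus strand). In HSCPs it was at 240 and 202 TPM in wild type, 176 and 198 in CBL mutant, 184 and 235 in RUNX1 mutant, and 178 and 183 in CBL/RUNX1 mutant libraries. The Ly6G+ cells had 361 and 330 TPM in wild type, against 84.6 and 254 in the CBL/RUNX1 mutant. In deposited TPM, CBL mutant and CBL/RUNX1 mutant HSCPs lay below wild type, and RUNX1 mutant HSCPs overlapped it. After scaling the RUNX1 mutant (138 and 248) also lay below wild type HSCPs (288 and 286). The log2 fold change against wild type was -0.92 ± 0.26 in CBL/RUNX1 mutant HSCPs (adjusted p = 0.0621), -0.65 ± 0.26 in CBL mutant and -0.63 ± 0.26 in RUNX1 mutant HSCPs, and none was called. The RUNX1 mutant libraries decided this for the others: without either of them, Hk3 was called lower in CBL/RUNX1 mutant HSCPs (adjusted p = 0.00133 for each) and in CBL mutant HSCPs (0.0292 and 0.0296), and so it was with the compared libraries alone (0.00136 and 0.0303). In Ly6G+ cells it was -1.82 ± 0.83 and not called. Replicate 1 of the CBL/RUNX1 mutant Ly6G+ cells decided the comparison with CBL/RUNX1 mutant HSCPs. The difference was -0.30 ± 0.59 with both replicates, 0.81 without replicate 1 (adjusted p = 0.0498) and -1.41 without replicate 2 (adjusted p = 0.0102).

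Hk2 encodes the inducible hexokinase that binds to mitochondria (chromosome 6, 82725025 to 82774454, minus strand). It was at 16.6 and 13.3 TPM in wild type, 19.3 and 22.6 in CBL mutant, 18.1 and 20.5 in RUNX1 mutant, and 21.1 and 16.5 in CBL/RUNX1 mutant HSCPs. It was at 25.4 and 22.9 TPM in wild type and 21.6 and 37.4 in CBL/RUNX1 mutant Ly6G+ cells, groups that overlap. No comparison called Hk2. Its log2 fold changes in the HSCP genotype comparisons were between -0.37 and 0.08, and it was 0.63 ± 0.39 between wild type Ly6G+ cells and HSCPs. Within the summed TPM of Hk1, Hk2 and Hk3, Hk3 held 73.3% in both wild type HSCP libraries, 71.0% and 70.6% in CBL mutant, 53.9% and 71.2% in RUNX1 mutant and 58.0% and 61.6% in CBL/RUNX1 mutant HSCPs. Hk1, the ubiquitous hexokinase, held 21.6% and 21.9% in wild type HSCPs and 35.1% and 32.8% in CBL/RUNX1 mutant HSCPs. In wild type Ly6G+ cells Hk3 held 82.7% and 81.0%, and in CBL/RUNX1 mutant ones 58.7% and 71.4%. The CBL/RUNX1 mutant libraries thus had a smaller Hk3 share than wild type in both populations. Hk2 held 15% and 10.5% in CBL/RUNX1 mutant Ly6G+ cells, above the 4.81% to 8.09% of the other libraries.

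Gpi1 encodes glucose-6-phosphate isomerase, the enzyme after hexokinase (chromosome 7, 34201330 to 34230336, minus strand). In HSCPs it was at 847 and 762 TPM in wild type, 729 and 895 in CBL mutant, 794 and 970 in RUNX1 mutant, and 949 and 1231 in CBL/RUNX1 mutant libraries. Among Ly6G+ libraries its level was 705 and 798 TPM in wild type, against 469 and 584 in the CBL/RUNX1 mutant, the lowest values of all. No comparison called it. The log2 fold change of CBL/RUNX1 mutant Ly6G+ cells was -1.11 ± 0.52 against wild type, and -1.05 ± 0.37 against CBL/RUNX1 mutant HSCPs (adjusted p = 0.0644). In TPM without scaling the latter was -1.05 again, with adjusted p = 0.0208.

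Pfkl encodes the liver-type subunit of phosphofructokinase, which catalyses the committed step of glycolysis (chromosome 10, 77986947 to 78010083, minus strand). Its level in HSCPs was 25.5 and 21.0 TPM in wild type, 32.4 and 39.0 in CBL mutant, 51.3 and 25 in RUNX1 mutant, and 44.7 and 49.6 in CBL/RUNX1 mutant libraries. In Ly6G+ cells it was at 10.2 and 11.6 TPM in wild type, against 40.6 and 18.5 in the CBL/RUNX1 mutant, without overlap. Pfkl was the only one of the 10 genes with a positive log2 fold change in CBL/RUNX1 mutant against wild type Ly6G+ cells, at 0.70 ± 0.25, which was not called. It was lower in Ly6G+ cells than in HSCPs, by -1.08 ± 0.23 in wild type (adjusted p = 0.0069) and -0.76 ± 0.23 in the CBL/RUNX1 mutant (adjusted p = 0.0359). Without scaling both calls were lost (adjusted p of 0.0842 and 0.206), at log2 fold changes of -1.02 and -0.76. The mutant call was also lost without replicate 1 or 2 of its HSCPs (0.0729 and 0.209), of wild type HSCPs (0.0611 and 0.0612), of CBL mutant HSCPs (0.0534 and 0.0537) or of wild type Ly6G+ cells (0.0566 for each), and without replicate 2 of its Ly6G+ cells (0.124). In HSCPs the CBL/RUNX1 mutant differed from wild type by 0.38 ± 0.20, not called after scaling, and by 0.99 without scaling (adjusted p = 0.0341). Of the TPM of the 3 phosphofructokinase genes, Pfkl held 39.4% and 37.4% in wild type and 37.0% and 43.5% in CBL/RUNX1 mutant HSCPs, which overlap. It held 27.4% and 31.4% in wild type and 41.7% and 32.2% in CBL/RUNX1 mutant Ly6G+ cells.

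Aldoa encodes aldolase A, which splits fructose bisphosphate (chromosome 7, 126795234 to 126800751, minus strand). In HSCPs it was at 489 and 456 TPM in wild type, 434 and 508 in CBL mutant, 472 and 499 in RUNX1 mutant and 555 and 697 in CBL/RUNX1 mutant libraries. The Ly6G+ cells had 620 and 643 TPM in wild type, against 368 and 715 in the CBL/RUNX1 mutant, so that the mutant replicates enclosed the wild type ones. No comparison called it, with -0.24 ± 0.24 in CBL/RUNX1 mutant against wild type HSCPs and -0.89 ± 0.68 in Ly6G+ cells. Gpi1 TPM was 1.67 to 1.94 times Aldoa TPM in all 8 HSCP libraries and 0.817 to 1.27 times in the 4 Ly6G+ libraries, so the ratio of the pair separated the populations in both genotypes.

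Pgk1 encodes phosphoglycerate kinase, the first ATP-forming step (chromosome X, 106187100 to 106203699, plus strand). In HSCPs it was at 318 and 312 TPM in wild type, 357 and 373 in CBL mutant, 240 and 285 in RUNX1 mutant and 369 and 425 in CBL/RUNX1 mutant libraries. Among Ly6G+ libraries its level was 371 and 376 TPM in wild type, against 259 and 285 in the CBL/RUNX1 mutant. In deposited TPM the RUNX1 mutant HSCPs lay below all other HSCPs. After scaling they were at 180 and 301, overlapping the CBL/RUNX1 mutant HSCPs at 295 and 373. Their log2 fold change was -0.81 ± 0.25 against wild type (unadjusted p = 0.0148, not called by limma after adjustment). Pkm encodes pyruvate kinase M, the last step of the pathway (chromosome 9, 59656368 to 59679375, plus strand). In HSCPs it was at 823 and 774 TPM in wild type, 694 and 869 in CBL mutant, 615 and 789 in RUNX1 mutant and 846 and 909 in CBL/RUNX1 mutant libraries. In Ly6G+ cells it was at 1017 and 1065 TPM in wild type, against 489 and 921 in the CBL/RUNX1 mutant. The wild type Ly6G+ cells were highest and replicate 1 of the CBL/RUNX1 mutant Ly6G+ cells lowest. Its log2 fold change was -0.50 ± 0.28 in CBL/RUNX1 mutant and -0.75 ± 0.28 in RUNX1 mutant HSCPs against wild type, and -1.22 ± 0.68 in Ly6G+ cells, none called. Pklr, the liver and red cell pyruvate kinase, held at most 2.57% of the pyruvate kinase TPM.

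Ldha encodes the lactate dehydrogenase subunit that favours lactate formation (chromosome 7, 46841475 to 46855627, plus strand). Its 2 E-boxes are shown above. In HSCPs it was at 378 and 382 TPM in wild type, 497 and 516 in CBL mutant, 435 and 357 in RUNX1 mutant and 658 and 678 in CBL/RUNX1 mutant libraries. The Ly6G+ cells had 454 and 432 TPM in wild type, against 338 and 248 in the CBL/RUNX1 mutant. In TPM the CBL/RUNX1 mutant was thus the highest group in HSCPs and the lowest in Ly6G+ cells, with no overlap with its neighbours in either order. Ldha was higher in CBL/RUNX1 mutant than in RUNX1 mutant HSCPs by 0.68 ± 0.15 (adjusted p = 0.044). Leaving out either replicate of the CBL/RUNX1 mutant (0.136 and 0.266), the CBL mutant (0.0862 and 0.0871) or wild type (0.0813 and 0.0816) ended this call, and leaving out either replicate of the RUNX1 mutant did not (0.0389 and 0.0201). Against wild type HSCPs the difference was 0.18 ± 0.15, not called, and without scaling it was 0.81 (adjusted p = 0.0119). The CBL mutant did not differ detectably from wild type (0.00 ± 0.15), and the RUNX1 mutant had -0.50 ± 0.15 (unadjusted p = 0.0144, not called by limma after adjustment). Ldha was lower in CBL/RUNX1 mutant Ly6G+ cells than in CBL/RUNX1 mutant HSCPs by -1.21 ± 0.18 (adjusted p = 0.00268), while wild type Ly6G+ cells differed from wild type HSCPs by 0.17 ± 0.18. The test of that difference between genotypes gave -1.38 ± 0.26 and was not called (unadjusted p = 0.000498, adjusted p = 0.13 by limma).

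Ratios within a library again avoid the scaling. Ldha TPM over Pkm TPM was 0.459 and 0.494 in wild type, 0.717 and 0.594 in CBL mutant, 0.707 and 0.452 in RUNX1 mutant and 0.778 and 0.745 in CBL/RUNX1 mutant HSCPs. The CBL/RUNX1 mutant HSCPs were the highest of all libraries. In Ly6G+ cells the ratio was 0.447 and 0.406 in wild type, against 0.690 and 0.269 in the CBL/RUNX1 mutant, replicates on opposite sides of wild type. Ldhb, the subunit that favours pyruvate, held 11.7% and 11.4% of the Ldha and Ldhb TPM in wild type HSCPs. Its share was 5.79% and 10.1% in CBL mutant, 7.55% and 7.33% in RUNX1 mutant and 5.26% and 4.73% in CBL/RUNX1 mutant HSCPs, all below wild type. Among Ly6G+ libraries its share was 1.38% and 1.71% in wild type, against 5.66% and 6.90% in the CBL/RUNX1 mutant, above wild type. The difference between genotypes thus had opposite signs in the HSCPs and the Ly6G+ cells, and it was not tested.

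**Figure D2:**
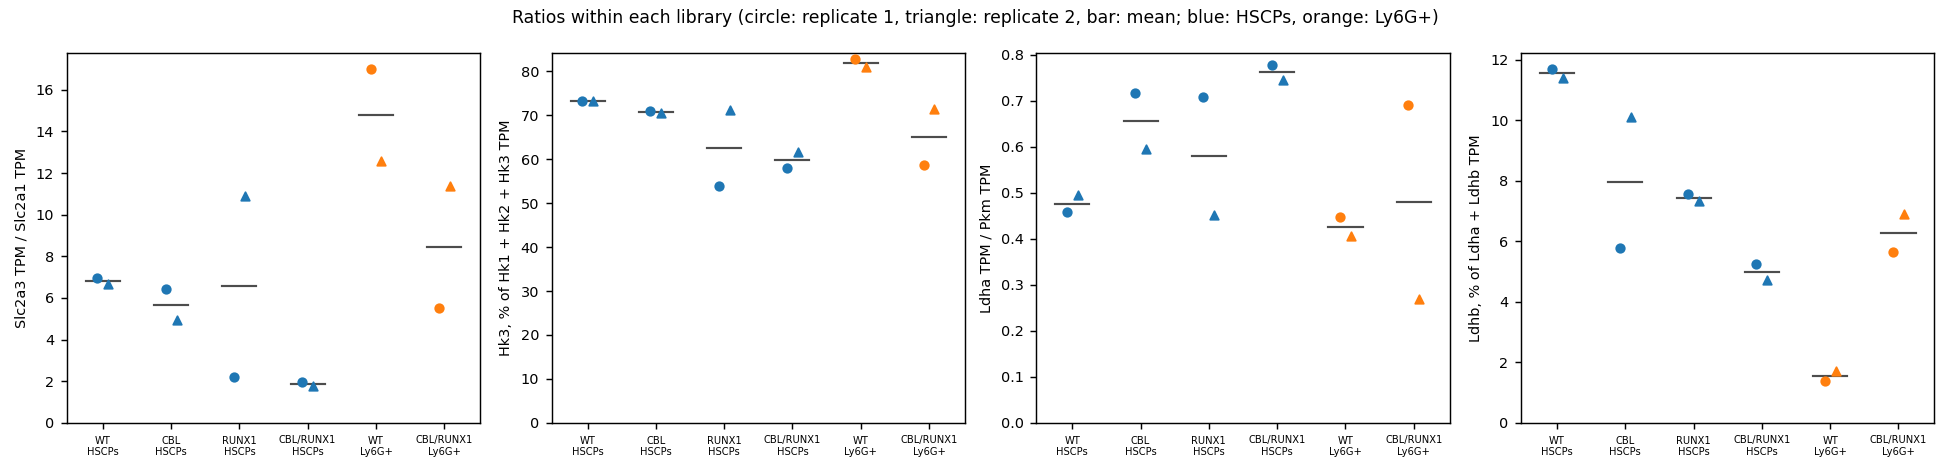
Ratios and shares of TPM within each library (vertical axes, linear from 0), by group; circles are replicate 1, triangles replicate 2 and bars the mean. The Slc2a3 to Slc2a1 ratio is lowest (1.75 and 1.95) and the Ldha to Pkm ratio highest (0.745 and 0.778) in CBL/RUNX1 mutant HSCPs.

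The comparison of CBL/RUNX1 mutant with wild type HSCPs asks what differs in the HSCP fraction when both mutations are present. Slc2a3 was lower, and the other 9 genes were not called. The 1 of 10 stands beside 1378 of 12421 genes called (11.1%), of which 6.54% of genes were lower and 4.56% higher. The median log2 fold change was -0.26 over the 10 genes and 0.02 over all genes, and over the 10 it was -0.07 without CBL/RUNX1 mutant replicate 1 and -0.47 without replicate 2. In deposited TPM, 7 of the 10 genes had both mutant libraries above both wild type ones (Slc2a1, Gpi1, Pfkl, Aldoa, Pgk1, Pkm and Ldha), as did 71.3% of all genes. Slc2a3 and Hk3 had both below, as did 10.8% of all genes. Direction therefore rested on the scaling for 5 genes. Gpi1, Aldoa, Pgk1, Pkm and Hk2 had scaled log2 fold changes of -0.21, -0.24, -0.30, -0.50 and -0.29, and unscaled ones of 0.43, 0.40, 0.33, 0.14 and 0.31. Without scaling the median of all genes moved to 0.56 and that of the 10 genes to 0.36. Under both scalings 3 of the 10, Slc2a1, Pfkl and Ldha, lay above the median of all genes. The part of the S100a8 and S100a9 difference in that shift was not tested.

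**Figure D3:**
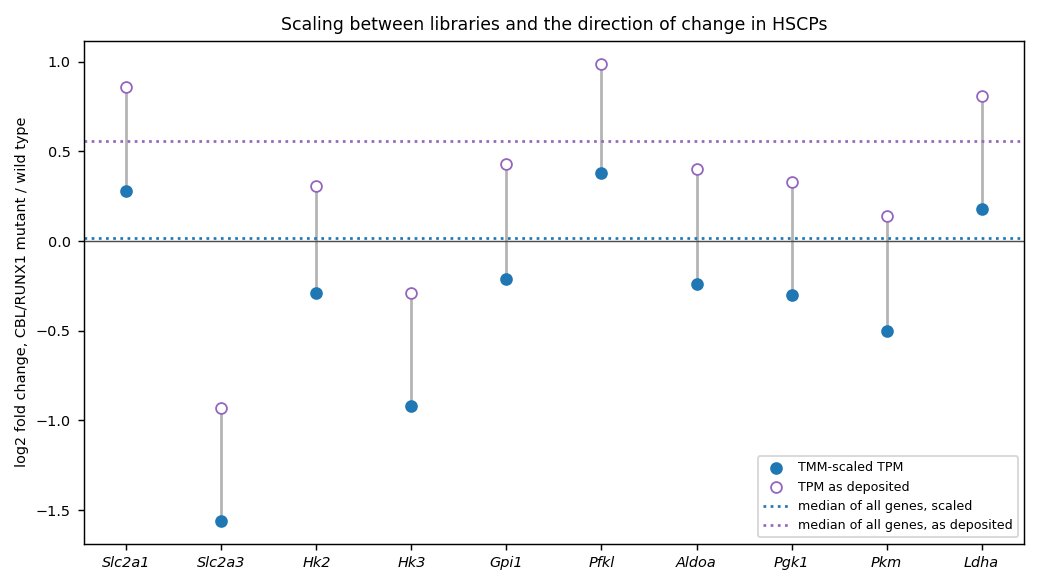
Log2 fold change of each gene in CBL/RUNX1 mutant against wild type HSCPs (vertical axis) after TMM scaling (filled) and in TPM as deposited (open); dotted lines are the medians of all genes tested, 0.02 and 0.56. Slc2a3 and Hk3 are negative on both scales, Slc2a1, Pfkl and Ldha positive on both, and the other 5 genes change sign.

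The single mutants were compared with the same wild type HSCPs. In CBL mutant HSCPs none of the 10 genes was called by limma, beside 0.556% of all genes, and 1 had an unadjusted p under 0.05 (Hk3). In deposited TPM, 5 of the 10 genes lay wholly above wild type (Slc2a1, Hk2, Pfkl, Pgk1 and Ldha), beside 66.1% of all genes, and Hk3 wholly below, beside 5.80%. The median was -0.33 over the 10 genes and -0.02 over all genes, and without scaling 0.07 and 0.33. In RUNX1 mutant HSCPs none was called by limma, beside 0.0483% of all genes, and 4 had an unadjusted p under 0.05 (Hk3, Pgk1, Pkm and Ldha), all with negative log2 fold changes of -0.50 to -0.81. Hk2 lay wholly above wild type in TPM, beside 62.5% of all genes, Pgk1 wholly below, beside 4.22%, and the other 8 overlapped it. The median was -0.50 over the 10 genes and -0.03 over all genes, and without scaling 0.05 and 0.45. These values depended on which RUNX1 mutant library was kept. Without replicate 2, which left the library with high Kit, 7 genes were called lower (Slc2a3, Hk3, Gpi1, Aldoa, Pgk1, Pkm and Ldha, by -0.60 to -1.37) beside 3619 genes in all. Without replicate 1 none was called, beside 62 genes in all. The median of the 10 genes was -0.81 and -0.22 in these fits.

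CBL/RUNX1 mutant HSCPs were also compared with each single mutant. Against the CBL mutant none of the 10 genes was called by limma, beside 3.67% of all genes, and 1 had an unadjusted p under 0.05 (Slc2a3, -1.01 ± 0.35). In TPM 5 genes lay wholly above the CBL mutant (Slc2a1, Gpi1, Pfkl, Aldoa and Ldha), beside 51.5% of all genes, and Slc2a3 wholly below, beside 18.2%. Against the RUNX1 mutant Ldha was called higher, 1 of 10 beside 9.09% of all genes (5.89% higher, 3.20% lower). In TPM Aldoa, Pgk1, Pkm and Ldha lay wholly above the RUNX1 mutant, beside 27.2% of all genes, and Slc2a3 and Hk3 wholly below, beside 18.0%. Leaving out RUNX1 mutant replicate 1 gave 5 calls beside 3537 genes in all, and leaving out replicate 2 gave 3 beside 2494. The non-additive term asks whether both mutations together differ from the sum of the single ones. It called none of the 10 genes by limma, beside 0.0161% of all genes, and 1 had an unadjusted p under 0.05 (Ldha, 0.67 ± 0.22, adjusted p = 0.18). Its median was 0.65 over the 10 genes and 0.03 over all genes, and 8 of the 10 lay above the latter. That median was 0.31 without RUNX1 mutant replicate 1 and 0.41 without CBL/RUNX1 mutant replicate 2. Without RUNX1 mutant replicate 2 the term called 4 of the 10 beside 1979 genes in all, and without replicate 1 it called 1 beside 1130.

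In Ly6G+ cells the CBL/RUNX1 mutant was compared with wild type. Of the 10 genes, 9 had a negative log2 fold change, from -0.34 (Hk2) to -1.82 (Hk3), and Pfkl a positive one. None was called by limma, beside 0.00% of 11744 genes, and 2 had an unadjusted p under 0.05 (Ldha and Pfkl). In TPM, 6 genes lay wholly below wild type (Slc2a3, Hk3, Gpi1, Pgk1, Pkm and Ldha), beside 12.5% of all genes, and Pfkl wholly above, beside 59.8%. The median was -1.08 over the 10 genes and 0.05 over all genes, and without scaling -0.49 and 0.58, with Pfkl and Hk2 (0.23) then positive. The mutant replicates decided the count. Without replicate 1, Slc2a3 (-0.71), Hk3 (-0.71), Pgk1 (-0.66) and Ldha (-1.10) were called lower beside 1209 genes in all. Without replicate 2 all 10 were called beside 6911 genes in all. The median of the 10 genes was -0.54 without replicate 1 and -1.52 without replicate 2. A fit of all 12 libraries called Ldha (adjusted p = 0.0127) beside 1021 genes. Replicate 1 also had the lower neutrophil marker sum and the higher sum of 8 stem and progenitor markers (615 against 96.7 TPM in replicate 2), and the part of that difference was not tested.

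Wild type Ly6G+ cells were compared with wild type HSCPs to see how glycolysis genes differ between these marrow fractions. The wild type HSCP libraries had Ly6g at 482 and 504 TPM and Kit at 25.6 and 24.5 TPM. The comparison is therefore not one of mature with purely immature cells. Both transporters, Slc2a3 and Slc2a1, were higher and Pfkl was lower, 3 of 10 beside 39.1% of all genes (16.4% higher, 22.7% lower). The other 7 genes had log2 fold changes of -0.15 (Gpi1) to 0.63 (Hk2). In TPM 8 genes lay wholly above HSCPs, beside 38.4% of all genes, Pfkl wholly below, beside 42.7%, and Gpi1 overlapped. The median was 0.35 over the 10 genes and -0.08 over all genes. Between the CBL/RUNX1 mutant populations Slc2a3 was higher and Ldha and Pfkl were lower, 3 of 10 beside 28.7% of all genes (12.3% higher, 16.4% lower). In TPM Slc2a3 and Hk2 lay wholly above HSCPs, beside 28.2% of all genes, and Gpi1, Pfkl, Pgk1 and Ldha wholly below, beside 25.4%. The genotype by cell type term, which tests whether the populations differ by genotype, called none of the 10 by limma, beside 0.0684% of all genes, and 1 had an unadjusted p under 0.05 (Ldha). Its median was -0.74 over the 10 genes and 0.06 over all genes. Without CBL/RUNX1 mutant Ly6G+ replicate 2 it called 4 of the 10 beside 2042 genes in all, and without replicate 1 none beside 35. Replicate 1 set the direction of the median, which was 0.07 without replicate 1, with 6 of the 10 above the median of all genes, and -1.42 without replicate 2.

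**Figure D4:**
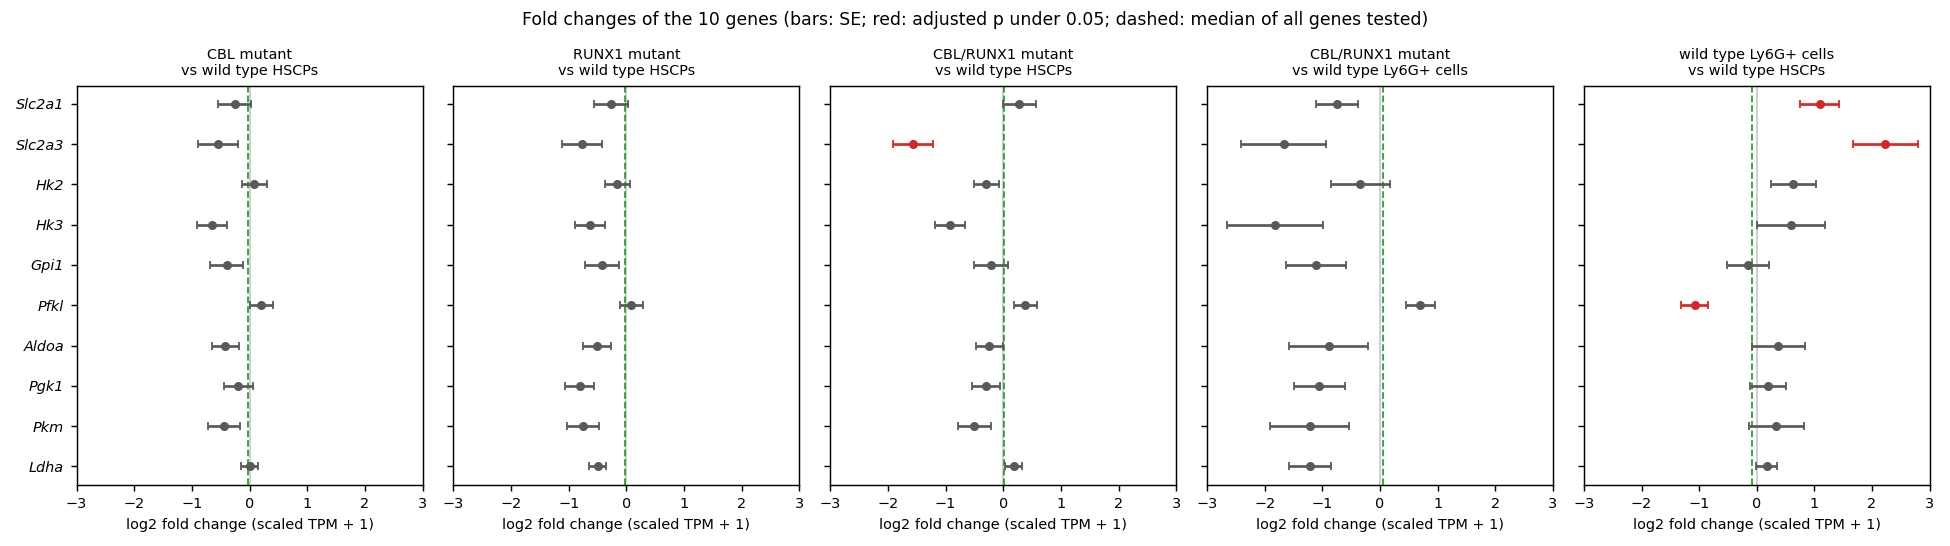
Log2 fold change of scaled TPM + 1 (horizontal axes) with its SE for the 10 genes in 5 comparisons; red points are called and the dashed line is the median of all genes tested. Slc2a3 is lower (-1.56) in CBL/RUNX1 mutant HSCPs, 9 of the 10 genes are left of 0 in CBL/RUNX1 mutant Ly6G+ cells with none called, and Slc2a1, Slc2a3 and Pfkl are called between the wild type populations.

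The neighbouring steps of sugar metabolism were read from lists, beside 11.1% of all genes called between CBL/RUNX1 mutant and wild type HSCPs. Of 15 other glycolytic enzymes and transporters tested in HSCPs, 1 was lower in the CBL/RUNX1 mutant than in wild type, Adpgk, the ADP-dependent glucokinase (-3.48 ± 0.73, adjusted p = 0.0339). Adpgk was at 330 and 289 TPM in wild type and 47.9 and 37.0 in CBL/RUNX1 mutant HSCPs, and at 72.3 and 330 in the RUNX1 mutant. Of 17 genes of pyruvate and lactate handling, 1 was higher and 2 were lower. Pdha1, a subunit of pyruvate dehydrogenase, had 0.49 ± 0.11, Ldhb had -1.11 ± 0.27, and Slc16a3, the lactate exporter MCT4, had -1.54 ± 0.35 (70.3 against 36.7 TPM as group means). Of 19 regulators and oxygen sensors, Tigar, which lowers fructose 2,6-bisphosphate, was higher (0.89 ± 0.17) and Vhl, which marks HIF for degradation, was lower (-1.0 ± 0.17). Of 7 pentose phosphate genes G6pdx, the entry enzyme (-1.60 ± 0.34), and Rpe (-0.97 ± 0.24) were lower, and the median of that list was -0.83. Of 10 glycogen genes Pygl, a glycogen phosphorylase, was lower (-1.56 ± 0.39). Of 3 gluconeogenesis genes tested Fbp1, which reverses the phosphofructokinase step, was higher (2.52 ± 0.20, adjusted p = 0.00224). Its level was 8.41 to 9.26 TPM in wild type, 12.4 to 17.5 in CBL mutant, 14.4 to 18.5 in RUNX1 mutant and 76.6 to 92.7 in CBL/RUNX1 mutant HSCPs. Fbp1 was also higher in the CBL/RUNX1 mutant than in the CBL mutant (2.22 ± 0.20) and the RUNX1 mutant (2.21 ± 0.20). Other genes of these lists called against the RUNX1 mutant were Slc16a1, the lactate and pyruvate carrier MCT1 (0.74 ± 0.13), Pdha1 (0.59 ± 0.11), Tigar (0.89 ± 0.17) and Egln3, an oxygen sensor (1.21 ± 0.26), all higher. No gene of these lists was called in the CBL mutant or RUNX1 mutant against wild type, for the non-additive term, in Ly6G+ cells by genotype, or for the genotype by cell type term. In those 5 comparisons an unadjusted p under 0.05 was reached by 2 to 6 of the 14 or 15 other glycolytic genes, except the genotype by cell type term, where it was reached by 1.

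Between the wild type populations, where 39.1% of all genes were called, the same lists were read. Of the 15 other glycolytic genes Slc2a6, an intracellular transporter of the GLUT family (4.47 ± 0.34), and Eno3 (0.75 ± 0.26) were higher in Ly6G+ cells and Tpi1, triose phosphate isomerase (-1.24 ± 0.19), was lower. Slc2a6 was at 1.53 to 2.33 TPM in wild type HSCPs and 57.7 to 63.0 in wild type Ly6G+ cells. Of 17 genes of pyruvate and lactate handling, 6 were lower, among them Ldhb (-2.75 ± 0.28), Slc16a1 (-0.99 ± 0.17) and the pyruvate dehydrogenase component Dlat (-1.13 ± 0.15), and Slc16a3 was higher (2.07 ± 0.59). Of 19 regulators, Txnip, an inhibitor of glucose uptake (2.28 ± 0.42), Bnip3 (1.58 ± 0.22), Ankrd37 (1.71 ± 0.53) and Pfkfb4 (1.99 ± 0.64) were higher and Myc was lower (-2.39 ± 0.46). Rpia was the 1 pentose phosphate gene called of 7 (-1.31 ± 0.26). Among glycogen genes Pygm was higher (0.71 ± 0.24) and Pgm1 lower (-0.87 ± 0.18), and Fbp1 (-1.94 ± 0.33) and G6pc3 (-2.15 ± 0.27) were lower among 3 gluconeogenesis genes. Between the CBL/RUNX1 mutant populations, where 28.7% of all genes were called, Slc2a6 (2.68 ± 0.34) was higher and Tpi1 (-1.11 ± 0.19), Pgam1 (-1.38 ± 0.31) and Pfkp (-0.58 ± 0.18) were lower in Ly6G+ cells. There 5 genes of pyruvate and lactate handling were lower, including Slc16a1 (-1.78 ± 0.17) and Pdhb (-0.96 ± 0.16), and Slc16a7 was higher (0.82 ± 0.26). Of 19 regulators 4 were higher, Hif1an, Vhl, Bnip3 and Pfkfb4 (0.75 to 2.11), and 3 were lower, Egln3, Tigar and Myc (-1.09 to -1.96). Rpia (-0.93 ± 0.26), Pgm1 (-1.09 ± 0.18), G6pc3 (-1.61 ± 0.27) and Fbp1 (-3.18 ± 0.33) were lower and Pygm (0.81 ± 0.24) was higher.

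The genes whose pattern over the 12 libraries was most like each of the 10 were found among 8682 genes. The measure was the root mean square distance between centred log2(scaled TPM + 1) values. All genes in a library share its cell mixture and scale, so these distances are descriptions. Slc2a3 was nearest to Prr13 (0.19) and C5ar2 (0.21), and Hk3 to Dram1 and Usp46 (0.12 each). Slc2a1 was nearest to Pnpla2 and Slc25a20 (0.24 each), and Hk2 to Entr1 and Slc35f6 (0.14 each). Gpi1 was nearest to Sem1 and Tbkbp1 (0.15 each), Pfkl to Fubp1 (0.10) and Pdf (0.11), and Aldoa to Rab5if (0.09) and Naa60 (0.12). Pgk1 was nearest to Mdh2 (0.17) and D8Ertd738e (0.19), Pkm to Nin (0.11) and Rbms1 (0.12), and Ldha to Wdr5 (0.17) and Prdx6 (0.19). Among the 10 themselves, Aldoa and Pkm were nearest to each other (0.16), Pgk1 lay 0.22 and Hk3 0.28 from Pkm, and Ldha lay 0.28 from Pgk1. The nearest of the 10 was Hk3 at 0.93 for Slc2a3, where a flat pattern would lie at 1.29, and Aldoa for Slc2a1 (0.48 against a flat 0.54) and Hk2 (0.33 against 0.44). For Gpi1 it was Pgk1 (0.29 against 0.50), and for Pfkl it was Ldha at 0.67, farther than a flat pattern at 0.51.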

How the data were processed

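The authors deposited a single table of TPM under a name that speaks of counts; its values are fractional. Each library sums to 933370 to 981994, and read depth is unknown, so no counting interval is given and precision rests on 2 libraries per group. The tools kallisto, bcl2fastq and CASAVA 1.8 and the build mm10 are named, per the submitters' processing notes; versions of kallisto and the annotation are not given in the sources used here. Symbols were found for 94.7% of identifiers.

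Each library's TPM was divided by a trimmed mean factor (TMM, trimming 0.3 of log ratios and 0.05 of levels), and genes with at least 1 TPM in at least 2 libraries of a fit were kept. limma 3.58.1 in R 4.3.3 was fitted to log2(scaled TPM + 1), with trend and robust moderation and group means only. Fits used the 8 HSCP libraries (12421 genes, 4 residual degrees of freedom), the 4 Ly6G+ libraries (11744 genes, 2) or all 12 (13155 genes, 6, for comparisons of cell types). The pseudocount of 1 understates fold changes of low genes. The Benjamini-Hochberg adjustment covered every gene of a fit. P-values measure the spread between these libraries, of which the labels say that marrow came from individual mice. The procedure was run on simulated data with known changes, and only the mean estimates were required to lie near them. Noise was drawn independently for each gene and library, so the run cannot show that the calls hold where replicates stand apart.

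All 10 genes are named, with up to 4 called genes per direction of each other list and the nearest genes in pattern. Of the genes this rule names, 1 is not reported here. The genes and lists were chosen with earlier results of these data known. Whether a replicate number marks a shared mouse, litter or day is not known, so the main fits held no block. Replicate differences correlated over genes by -0.01 to 0.46 between groups, not above 0.1 in every pair. Such correlations cannot show whether samples were paired. kallisto assigns reads that fit several transcripts by estimate, and Pgk1, Ldha, Aldoa and Pkm have processed pseudogenes of near-identical sequence, so their levels are uncertain to that extent. Coordinates are those of GENCODE M21 on GRCm38. The alternatives were other scaling, pseudocounts, filters, moderation, libraries in the fit, a replicate block and leaving out each library. Figures and tables used Python 3.11.15.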

Additional observations from a re-analysis of the deposited data

How the results depend on the processing

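Among the 950 log2 fold changes of the 10 genes recomputed under alternatives that kept all compared libraries, 17 changed sign, all in TPM without scaling and none of them called on either side. Leaving out a library changed the sign of 36 of 880, and 1 of these was called, namely Hk3 between the CBL/RUNX1 mutant populations, which was 0.81 without Ly6G+ replicate 1 and -1.41 without replicate 2.

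Counts of the 10 genes called moved as follows. For the CBL/RUNX1 mutant against wild type HSCPs, 1 became 3 without scaling, 0 without a filter, 0 without trend and robust moderation, 0 in a fit of all 12 libraries and 4 with the compared libraries alone. Over all genes, 1378 became 4382, 440, 1072, 233 and 4593 in the same order. Against the RUNX1 mutant, 1 became 0 without a filter, without trend and robust moderation, with all 12 libraries and with the compared libraries alone. There 1129 over all genes became 375, 757, 203 and 2 in the same order. With the compared libraries alone the CBL mutant against wild type gave 1, the CBL/RUNX1 against the CBL mutant 2, the wild type populations 6 and the CBL/RUNX1 mutant populations 0. Over all genes these counts went from 69 to 932, 456 to 2159, 5138 to 8316 and 3771 to 4. Without a filter each comparison of cell populations went from 3 to 2. Over all genes the wild type populations then went from 5138 to 5039 and the CBL/RUNX1 mutant ones from 3771 to 3216. Without scaling the wild type populations gave 1, and with all 12 libraries the CBL/RUNX1 mutant against wild type Ly6G+ cells gave 1. Over all genes the former went from 5138 to 3196 and the latter from 0 to 1021. The cause of these moves was not tested. Of the calls in HSCPs, Slc2a3 against wild type had adjusted p of 0.0814 without a filter, 0.0505 without trend and robust moderation and 0.177 with all 12 libraries, but 4.1e-05 with the compared libraries alone. Ldha against the RUNX1 mutant had 0.0737, 0.0549, 0.0946 and 0.185 under the same 4 settings.

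Leaving out each library in turn gave counts of 0 to 1 (CBL mutant against wild type HSCPs), 0 to 7 (RUNX1 mutant), 0 to 3 (CBL/RUNX1 mutant), 0 to 2 (CBL/RUNX1 against CBL mutant), 0 to 5 (CBL/RUNX1 against RUNX1 mutant), 0 to 4 (non-additive term), 0 to 10 (genotype in Ly6G+ cells), 1 to 4 (wild type populations), 1 to 6 (CBL/RUNX1 mutant populations) and 0 to 4 (genotype by cell type). A lone library left in a group is assumed to vary like the other groups. Over all genes, the count for the CBL/RUNX1 mutant against wild type HSCPs was 1378. It was 233 to 4593 under the alternatives that kept every compared library and 23 to 4370 with a library left out.

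With the replicate number as a replicate block, Slc2a3 in CBL/RUNX1 mutant against wild type HSCPs had adjusted p = 0.051 and Hk3 had 0.0493, and Gpi1 between the CBL/RUNX1 mutant populations had 0.0188, at log2 fold changes of -1.56, -0.92 and -1.05. The count of the 10 genes was 1 in the former comparison and 4 in the latter, and no other call among them moved. Over all genes the counts were 1478 and 4078. Whether the numbers pair the samples is not known. Depth is unknown, and values near the pseudocount are the least certain.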
